A study of Bos taurus with 16 samples.

Results

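The corpora lutea of 4 Japanese Black cows on days 40-45 of pregnancy were compared with those of 4 Japanese Black cows on days 20-25 of pregnancy, the day of insemination being day 1. The arrays were taken by their titles, 8 of the 16 in the series, and each array held the RNA of 1 animal. The other 8 arrays, 4 of cyclic cows (days 10-12 of their cycle) and 4 of cows late in pregnancy (days 150-160), entered the same fit, where they add to the estimate of the spread between animals and to the choice of probes tested, and serve as the stages before and after. RNA of the whole gland was labelled with Cy3 and hybridised to 1-colour bovine oligonucleotide arrays. The labels name no treatment, and they call days 40-45 the early II and days 20-25 the early I phase of pregnancy.

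The corpus luteum is the temporary gland that forms from the ovulated follicle and secretes the progesterone that pregnancy needs. In ruminants its large luteal cells also make oxytocin, and it regresses at the end of a cycle when prostaglandin F2 alpha from the uterus reaches it, unless the conceptus prevents this. The signal of the early ruminant conceptus is interferon tau, which induces interferon-stimulated genes in the uterus and in tissues beyond it, the corpus luteum included.

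A level below is the log2 of a probe's processed signal minus the 75th percentile of the log2 signals of its array, so a level of 0 is that percentile itself and a difference of 1 is 2-fold. Levels of different probes cannot be set against each other. That 75th percentile, before the log, was 2244.6 to 3446.7 on days 40-45 and 2048.3 to 3475.0 on days 20-25 (exact permutation test over the 8 arrays, two-sided, p = 0.8), and 71.9% to 78.4% and 73.0% to 79.5% of probes were well above background (p = 0.486). The tissue label was borne out by its markers: all 8 genes of steroidogenic luteal cells on the array, among them STAR and CYP11A1, were well above background in both groups, and their summed signal was 408 to 589 times the 75th percentile on days 40-45 and 392 to 555 times on days 20-25. Each slide held 2 arrays of both groups, and slide was a term of the fit. All arrays of days 40-45 lay in the second row of their slide and all of days 20-25 in the first, so row and stage cannot be told apart.

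Replicate 4 of days 20-25 stood apart from the other 7 arrays. On the first principal component of the 8 arrays, which held 42.8% of the variance, it lay at 79.8, and the others lay between -20.5 and -3.9. Much of the gap lay in 1 region of the array. In an oval in the middle of that array, 1745 spots or 11.5% of the probes, the signal was low, with a median of -1.38 on the log2 scale against the other 3 arrays of the stage and a lowest local median of -5.46. No other array had more than 4 such spots. Of the 140 bright spots more than 8-fold below the other arrays of the stage, 129 lay in the oval.

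**Figure D1:**
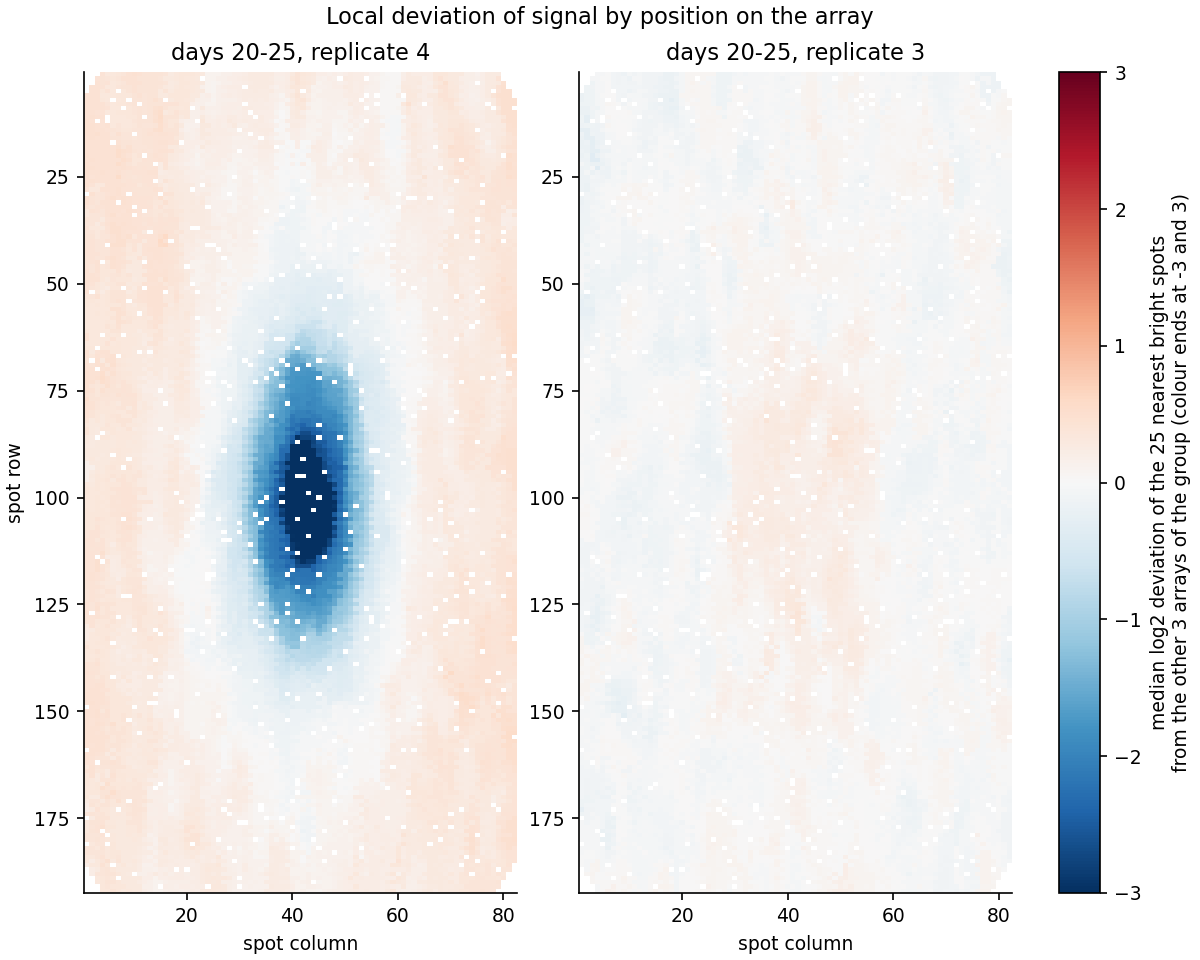
Local deviation of signal across the surface of 2 arrays of days 20-25, replicate 4 on the left and replicate 3 on the right. Each cell is 1 spot at its row and column, and its colour is the median log2 deviation of the 25 nearest bright spots from the other 3 arrays of the group; white cells inside the field hold control spots. Replicate 4 has an oval of low signal in its middle, reaching -5.46, and replicate 3 stays between -0.33 and 0.41.

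Outside the oval the same array was still the farthest of its stage, but less so. Over the 10531 probes used there, the first component held 28.5% of the variance and ran from 5.8 to 23.9 on days 40-45, against -9.1 to -7.5 for replicates 1 to 3 of days 20-25 and -42.1 for replicate 4. Its mean correlation with its own group was 0.962 over all probes tested and 0.985 outside the oval, and pairs of the other 7 arrays had 0.982 to 0.992 over all probes tested. The low spots pushed the comparison upward inside the oval and slightly downward outside it. The median difference of days 40-45 minus days 20-25 was 0.33 for the 1391 tested probes inside and -0.07 for the 10552 outside. With the low spots set to missing it was -0.01 inside and -0.03 outside. Results below are given with all arrays, and where this array matters also with its low spots missing and without it.

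The 10 probes farthest below the other 3 arrays of days 20-25 in replicate 4 were all inside the oval, with differences of -6.10 to -5.41. HEXIM2, which binds a transcription elongation factor, had a level of -5.68 in that cow and a mean of 0.42 in the other 3. NDUFAB1, the acyl carrier protein of mitochondria, had -0.32 and a mean of 5.50. SFT2D2, RAB10, STT3A, HNRNPH2, GTF3C2, TMBIM4 and IDH3A were also among them. The mean levels of these 9 genes on days 40-45 were within 0.17 of the mean of replicates 1 to 3 of days 20-25. Of the 10 probes farthest above, 9 lay outside the oval. HSD17B1, an enzyme of estradiol synthesis that granulosa cells express, stood at -0.25 in replicate 4 and at a mean of -4.24 in the other 3 cows, and on days 40-45 it lay between -5.27 and -4.20. TNC, the matrix protein tenascin C, stood 3.57 above the other 3, STRA6, a retinol uptake receptor, 3.42, and LTBP2, a matrix protein that binds microfibrils, 3.01. FABP7, NTRK3, IBSP, CPE, PI16 and F3 were 2.40 to 3.43 above. The 20 probes were chosen for this difference, so it is a description of 1 array.

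Between the stages limma called 7 of 11943 probes at an adjusted p under 0.05, which is 0.0586% of those tested, 2 higher (0.0167%) and 5 lower (0.0419%) on days 40-45. The fitted differences of all 7 were past 2-fold, among them that of ESR2, which was at background on all 8 arrays and has no fold, and that of ABR5003, which was under 2-fold with dim signals raised to the floor. At an unadjusted p under 0.05 there were 260 probes higher (2.18%) and 893 lower (7.48%). In 311 probes (2.60%) every cow of days 40-45 was above every cow of days 20-25, and in 748 (6.26%) every one was below. Counted as 1 probe a gene, 5717 genes were tested, and 2373 had a positive and 3344 a negative difference. The called count depended on single arrays: it was 0 without cyclic replicate 2, without replicate 2 or 4 of days 20-25, without replicate 1, 2 or 4 of days 40-45 and without replicate 1 or 4 of days 150-160. It was 1 without cyclic replicate 3 or without replicate 1 or 3 of days 20-25, 2 without replicate 3 of days 40-45 or of days 150-160, 3 without cyclic replicate 4 or replicate 2 of days 150-160, and 9 without cyclic replicate 1. With the low oval missing it was 8, 2 of them higher. Quantile normalization gave 3, 2 higher and 1 lower.

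Of the called probes 4 have a gene name, which is OXT, PTGER3, ESR2 and FNDC5, and 3 have none in the annotation used. The arrays carry 60-base probes, and bases 1 to 30 of each are given so that the measured transcript can be looked up, the unnamed ones above all. They come from the deposited scanner files, are written 5′ to 3′, and no letter is marked; their positions in the genome and in the transcript are not analysed here.
OXT: ggcccccgataccgtcggagcgcagccctc
PTGER3: atttcacagaagcaaggagaggaaggggcc
ESR2: tcagggtgcaaaagccagtactcttgtcat
FNDC5: aaggctccttagggcagaggtccttacctc
ABR5003: atgttctagtcagattcctcatctgtaaac
ABR4875: agcagccctttcccactctgatgagtgtct
ABR7215: cctcgtgtactcctgtaccacaatcatctg

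OXT encodes the precursor of oxytocin and its carrier neurophysin. Its levels were 0.79, 1.87, 2.35 and 1.99 on days 40-45, against 5.03, 5.35, 4.40 and 5.32 on days 20-25. All 4 cows of the later stage lay far below all 4 of the earlier one, and the lowest was replicate 1. OXT fell by 3.27 on the log2 scale (SE 0.46, 95% interval -4.26 to -2.29, limma adjusted p = 0.0356), a 9.67-fold difference. Without replicate 4 of days 20-25 the difference was -3.11, and the adjusted p was then 0.106. The call held without cyclic replicate 1 or 4, replicate 3 of days 40-45 or replicate 2 or 3 of days 150-160, and was lost without any other single array (adjusted p of 0.0518 to 0.138 in those 11 fits). Within slide 1 the difference was -3.86 and within slide 2 it was -2.68. Oxytocin RNA was still well above background on all arrays of both stages.

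PTGER3 encodes the EP3 receptor for prostaglandin E2, which mostly couples to the inhibitory G protein. It had levels of -0.66, -1.64, -1.56 and -1.50 on days 40-45, against -4.69, -5.38, -3.99 and -4.22 on days 20-25. The groups did not overlap, and replicate 1 of days 40-45 lay above the other 3. PTGER3 rose by 3.23 (SE 0.47, 95% interval 2.22 to 4.24, limma adjusted p = 0.0363), which is 9.38-fold. The difference was 3.24 without replicate 4 of days 20-25 (adjusted p = 0.106), 3.88 within slide 1 and 2.58 within slide 2. The call held without cyclic replicate 1 or 4 or replicate 2 of days 150-160, and was lost without any other single array (adjusted p of 0.0544 to 0.138 in those 13 fits).

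**Figure D2:**
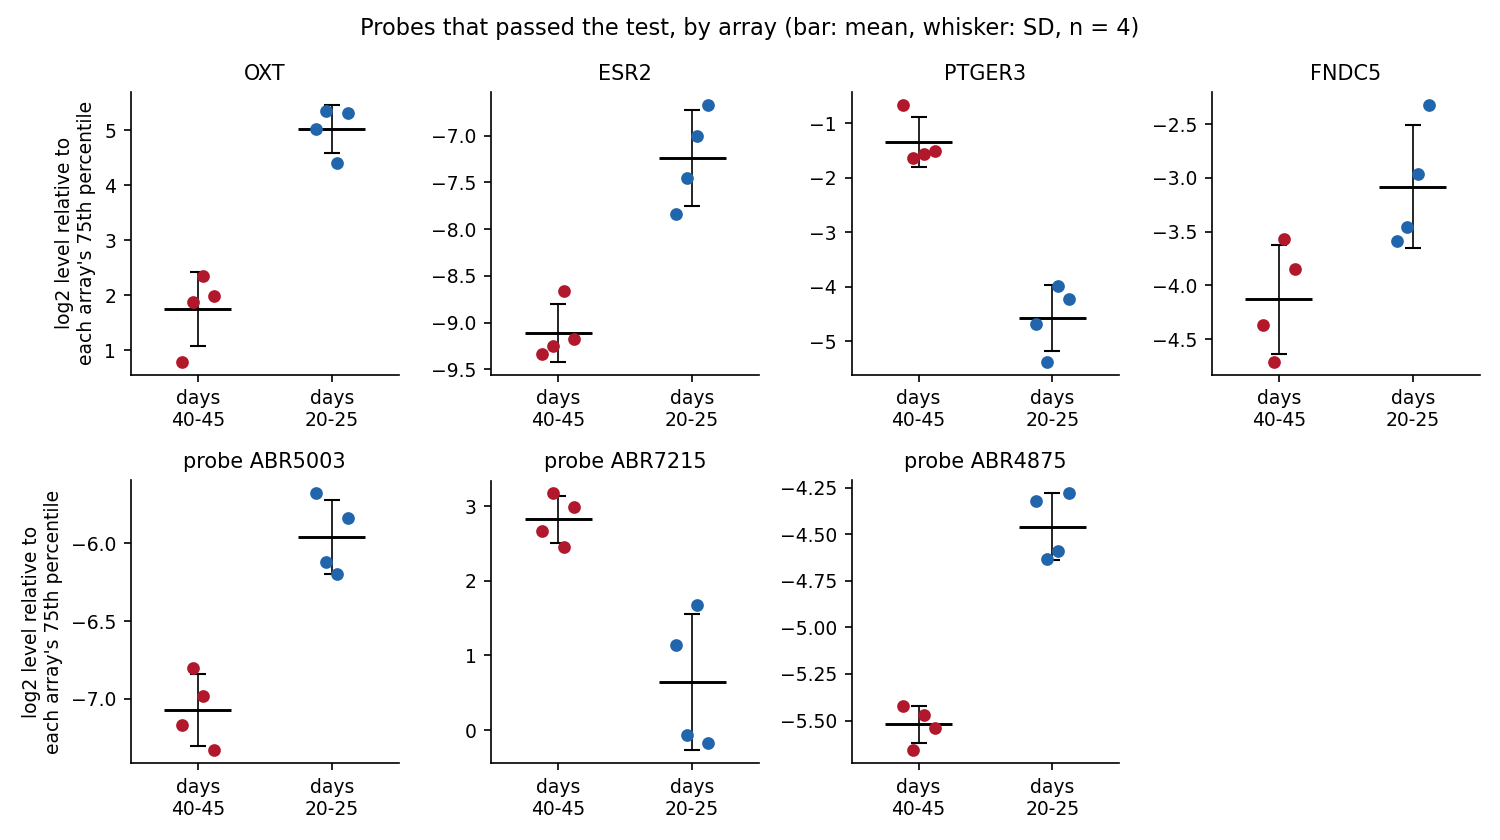
Level of the 7 probes that passed the test, on a log2 scale relative to the 75th percentile of each array, in 4 cows of days 40-45 (left) and 4 of days 20-25 (right). Points are arrays, bars are means and whiskers are SDs. OXT lies between 0.79 and 2.35 on days 40-45 and between 4.40 and 5.35 on days 20-25, PTGER3 runs the other way, and the ESR2 signal was not well above background on any of the 8 arrays.

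ESR2, estrogen receptor beta, passed the test on signals at background. Its probe was not well above background on any of the 8 arrays and entered the test through another stage. Signals stood at -9.34, -9.25, -8.66 and -9.18 on days 40-45 and at -7.84, -7.45, -7.00 and -6.67 on days 20-25, and the lowest signal well above background was -7.12 to -6.39 on those of days 40-45 and -7.02 to -6.24 on those of days 20-25. The groups did not overlap, yet every signal lay under the floor of its array, and no fold is given. The fitted difference was -1.87 (limma adjusted p = 0.0356). With signals under background raised to the floor it was -0.16 (adjusted p = 0.798), and with another background correction, normexp, -0.32 (adjusted p = 0.615).

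FNDC5 encodes a membrane protein with a fibronectin type III domain whose shed part is called irisin in mice and humans. The probe is named for the human gene in the design's annotation, and the gene is described because it was called, outside the rule for named genes. It stood at -4.37, -4.71, -3.57 and -3.85 on days 40-45, against -3.59, -3.46, -2.96 and -2.32 on days 20-25. The groups overlapped narrowly, at replicate 3 of the later stage and replicate 1 of the earlier one. FNDC5 fell by 1.04 (SE 0.16, limma adjusted p = 0.0460), or 2.06-fold, and the difference was -0.91 without replicate 4 of days 20-25 (adjusted p = 0.106). Without slide as a term the difference was again -1.04, but the call was lost (limma adjusted p = 0.407). It was also lost with signals under background raised to the floor (adjusted p = 0.0559).

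Among the unnamed probes ABR7215 rose and the other 2 fell. ABR7215 stood at 2.67, 3.17, 2.45 and 2.99 on days 40-45, against 1.14, -0.07, 1.67 and -0.17 on days 20-25, with no overlap. Its difference was 2.17 (SE 0.35, limma adjusted p = 0.0474). This spot lies in the low oval of replicate 4, but replicate 2 of days 20-25 was about as low; with the oval missing the difference was 1.85 and the call was lost (adjusted p = 0.058). ABR4875 stood between -5.66 and -5.42 on days 40-45 and between -4.63 and -4.28 on days 20-25, and fell by 1.07 (SE 0.17, adjusted p = 0.0474). ABR5003 stood between -7.33 and -6.80 on days 40-45, where 1 of 4 arrays was well above background, and between -6.20 and -5.68 on days 20-25, where all 4 were. ABR5003 fell by 1.11 (SE 0.17, adjusted p = 0.0460), and by 0.84 with signals under background raised to the floor (adjusted p = 0.206). FNDC5 and each of these 3 probes kept their call in 1 of the 16 fits that left out an array, with adjusted p up to 0.218 in the other 15.

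Setting the low oval to missing added 2 calls and dropped ABR7215. ETNPPL, a lyase that breaks down phosphoethanolamine, lay inside the oval. It had levels of -2.01, -1.43, -1.82 and -1.46 on days 40-45, against -3.77, -4.49, -2.99 and -8.54 on days 20-25, the last being replicate 4. Its difference was 3.27 with all values (adjusted p = 0.251) and 1.97 with the oval missing (adjusted p = 0.0357). The other gain was MX2, described with the interferon genes. Both were singled out after their values were seen.

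OXT and PTGER3 are best read beside the stages before and after. OXT averaged 5.80 ± 0.61 in the cyclic group, 5.02 ± 0.44 at days 20-25, 1.75 ± 0.67 at days 40-45 and -2.17 ± 0.98 at days 150-160 (SD, n = 4 each). It was lower at each stage than at the one before, and the first step, -0.77, did not pass the test in the same fit (adjusted p = 0.41), whereas the last, -3.92, did (adjusted p = 0.00887). PTGER3 averaged -6.45 ± 1.28 in the cyclic group, -4.57 ± 0.61 at days 20-25, -1.34 ± 0.46 at days 40-45 and -0.01 ± 0.51 at days 150-160. Its steps before and after the one compared here were 1.89 (adjusted p = 0.0864) and 1.33 (adjusted p = 0.33). These steps share arrays with the comparison, so they are set side by side and not counted as separate support.

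No other member of the prostaglandin list passed the test. Of 19 tested genes of synthesis, transport and reception limma called 1, PTGER3, beside 4 of 5717 genes (0.07%) in all. At an unadjusted p under 0.05 it was 1 higher (5.26%) and 2 lower (10.5%), beside 2.22% and 7.75% of all genes tested. The median difference was -0.14, beside -0.05 over all 5717 genes tested. PTGFR, the receptor through which prostaglandin F2 alpha ends the life of the gland, had levels of 4.40, 4.48, 4.33 and 4.49 on days 40-45, against 4.02, 4.03, 4.11 and 4.08 on days 20-25. The groups did not overlap, but the difference of 0.37 did not pass (SE 0.20, 95% interval -0.06 to 0.80, adjusted p = 0.563). PTGIR, the prostacyclin receptor, had a difference of -1.06 (adjusted p = 0.393) and also did not overlap between stages; 1 of 4 arrays was well above background on days 40-45 and 3 of 4 on days 20-25. PTGER4, the EP4 receptor, had -0.47, and PTGER2, the EP2 receptor, 0.30, or -0.11 without replicate 4 of days 20-25.

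The hormone and receptor list held 23 tested genes with a median of -0.04. OXT and ESR2 were called, beside 4 of 5717 genes (0.07%) in all. INHA, the alpha subunit of inhibin, had -1.36, AVP, the sister gene of oxytocin that encodes vasopressin, -0.48, and PRLR, the prolactin receptor, 0.80, each with stages that did not overlap and none past the test. LHCGR, the receptor for luteinizing hormone, lies in the low oval; its levels were -2.30, -2.58, -1.82 and -2.03 on days 40-45 and -1.72, -2.68, -2.30 and -3.14 on days 20-25, and they overlapped. SOCS2, which dampens growth hormone signalling, had a difference of 0.29 (adjusted p = 0.63).

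Steroid synthesis was close to level. Of 19 tested genes none was called by limma, and the median was -0.01. At an unadjusted p under 0.05 it was 1 higher and 1 lower (5.26% each), beside 2.22% higher and 7.75% lower of all genes tested. STAR, which carries cholesterol into mitochondria, had levels of 7.43, 7.53, 7.55 and 7.79 on days 40-45, against 7.34, 7.30, 7.81 and 7.94 on days 20-25. The cows were interspersed, and the sign of the difference, -0.02 (adjusted p = 0.974), turned to 0.03 without replicate 4. CYP11A1, which cleaves the cholesterol side chain, had a difference of 0.10 (adjusted p = 0.744). HSD3B1, which completes progesterone, stood at 7.13, 7.13, 7.67 and 7.82 on days 40-45, against 6.76, 6.60, 7.22 and 7.24 on days 20-25. Within each slide the later stage was higher, by 0.45 and 0.51, and the difference of 0.48 did not pass (SE 0.15, 95% interval 0.16 to 0.80, adjusted p = 0.328). HSD17B1 had -1.55 with all arrays and -0.56 without replicate 4 of days 20-25, neither past the test.

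The 14 tested genes of cholesterol synthesis and uptake all had positive differences, beside 2373 of all 5717 genes tested, and their median was 0.32. Limma called none, and 1 was higher at an unadjusted p under 0.05 (7.14%, beside 2.22% of all genes tested). That gene was NSDHL, a sterol dehydrogenase of the late pathway, at -0.55, -0.69, -0.96 and -0.61 on days 40-45 and at -1.32, -1.32, -0.81 and -1.44 on days 20-25, which overlap at replicate 3 of both stages (difference 0.52, adjusted p = 0.416). MVK, mevalonate kinase, had 0.62 (adjusted p = 0.518). On slide 1 the 14 genes had a median of 0.51 and were all positive. On slide 2 the median was 0.11, with 9 positive and 5 negative, and without replicate 4 of days 20-25 it was 0.20.

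Interferon-stimulated genes stood lower as a group, with no member past the adjusted threshold. Of 55 genes listed 28 were on the array and 27 were tested. Limma called 0, beside 4 of all 5717 genes tested (0.07%), and at an unadjusted p under 0.05 it was 17 of 27 lower and 0 higher, beside 443 lower (7.75%) and 127 higher (2.22%) of all genes tested. In 14 of the 27 every cow of days 40-45 was below every cow of days 20-25, beside 371 genes (6.49%) in all. The median difference was -0.63, with 24 of 27 negative, beside -0.05 and 3344 of 5717 negative over all genes tested. It was -0.73 with the oval missing, -0.74 without replicate 4 of days 20-25, -0.47 within slide 1 and -0.83 within slide 2.

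**Figure D3:**
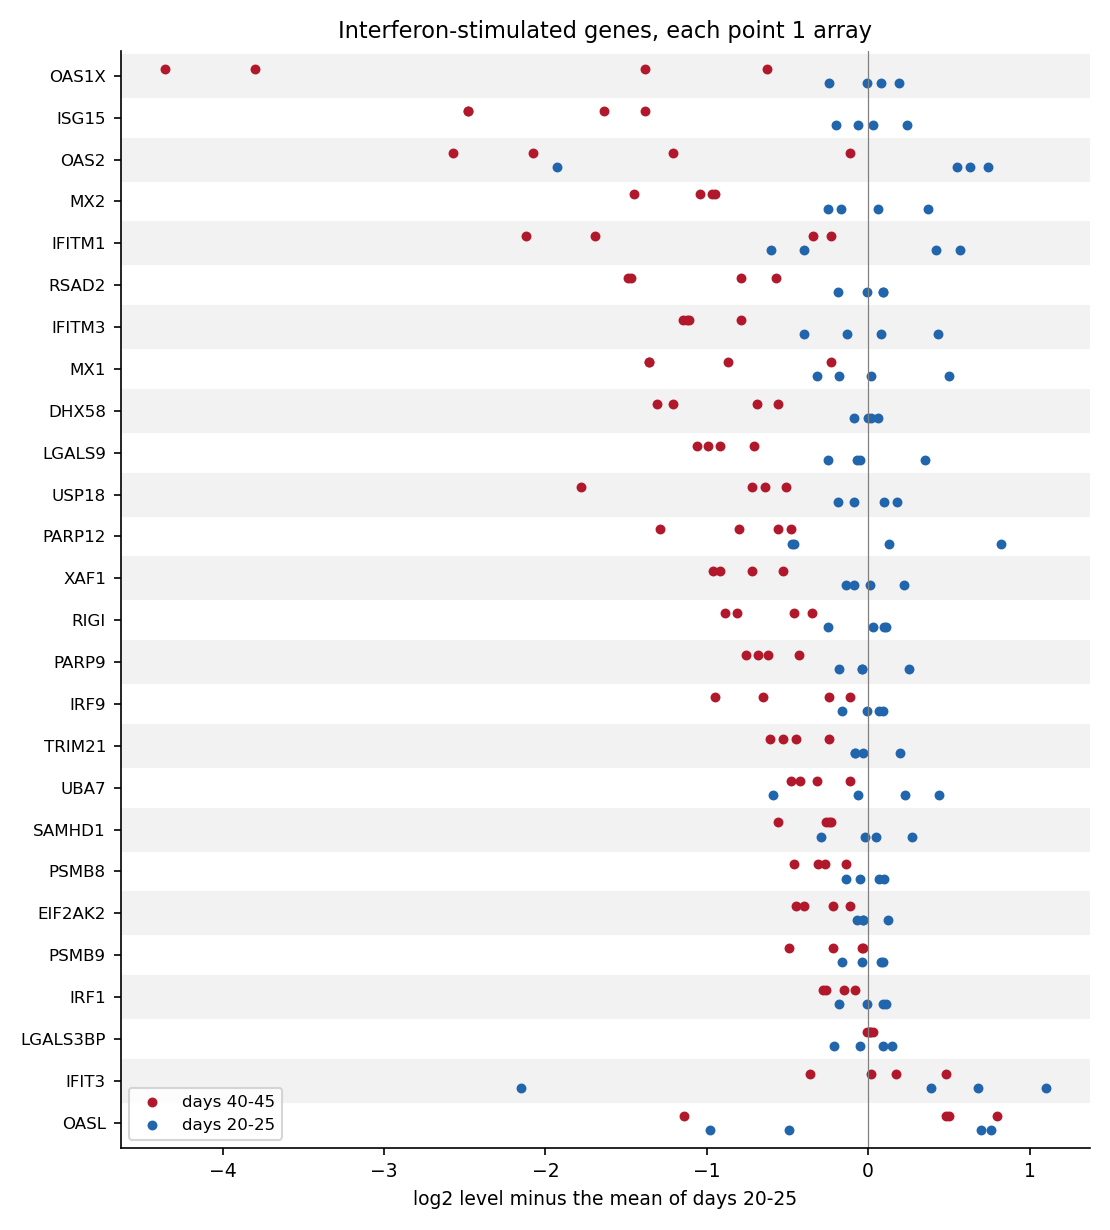
Levels of 26 of the 27 tested interferon-stimulated genes in each array, drawn as the difference from the gene's mean on days 20-25 (log2). For each gene the upper row is days 40-45 and the lower row days 20-25, 4 arrays each. In 14 genes the 2 stages do not overlap, all of them lower on days 40-45; OAS2, IFIT3 and UBA7 lie in the low oval of replicate 4.

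ISG15, the ubiquitin-like protein that interferon induces, had levels of 1.32, 1.58, 0.48 and 0.48 on days 40-45, against 2.90, 2.76, 3.20 and 2.99 on days 20-25. The cows of days 20-25 lay close together, above all 4 later ones. The difference was -2.00 (SE 0.45, 95% interval -2.97 to -1.02) and did not pass the test (adjusted p = 0.19). It was -1.38 within slide 1 and -2.62 within slide 2.

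MX2, an interferon-induced GTPase, stood at -6.35, -6.42, -6.33 and -6.83 on days 40-45, against -5.63, -5.55, -5.32 and -5.01 on days 20-25, with no overlap and all 8 arrays well above background. Its difference was -1.10 (SE 0.19, adjusted p = 0.0674), and -1.06 with the oval missing, where it was called (adjusted p = 0.0485). MX1, its antiviral paralog, had 2.74, 1.61, 2.10 and 1.61 on days 40-45, against 2.65, 2.79, 3.47 and 2.99 on days 20-25. Replicate 1 of the later stage overlapped, and the difference was -0.96 (adjusted p = 0.405). Whether the 2 probes read each other's transcript was not tested.

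IFITM3, which blocks entry of viruses into cells, had levels of 3.60, 3.96, 3.64 and 3.63 on days 40-45, against 4.62, 4.35, 4.83 and 5.18 on days 20-25. The stages did not overlap (difference -1.04, SE 0.24, adjusted p = 0.19). OAS1X, one of the oligoadenylate synthetases that sense double-stranded RNA, had the most negative difference of the list, -2.54, with the widest spread: -1.92, -2.67, -5.09 and -5.65 on days 40-45 and -1.53, -1.21, -1.10 and -1.30 on days 20-25. The first 2 later cows are on slide 1 and the other 2 on slide 2. RSAD2, the antiviral enzyme viperin, had -1.08, and DHX58, a regulator of RNA sensing, -0.94, both without overlap (adjusted p = 0.202 and 0.281). IRF1 and PSMB9, which interferon gamma also induces, each had -0.19 and overlapped. RSAD2, DHX58, OAS1X, IRF1 and PSMB9 were named after their values were seen.

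In the same fit the median of the 27 genes was 0.74 for days 20-25 minus cyclic cows, with 24 positive, and 0.03 for days 150-160 minus days 40-45. These differences share the arrays of days 20-25 and of days 40-45 with the comparison and are set beside it as values.

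Chemokines attract leukocytes and are the stated interest of the series. Of 19 tested ligands limma called 0, beside 4 of 5717 genes (0.07%) in all, and the median was -0.23. At an unadjusted p under 0.05 it was 0 lower, beside 7.75% of all genes tested, and 1 higher (5.26%, beside 2.22%). That 1 was CCL11, eotaxin, which attracts eosinophils. Its levels were -2.03, 1.05, -2.70 and -1.98 on days 40-45, against -5.14, -9.15, -5.99 and -4.00 on days 20-25. The stages did not overlap, but replicate 2 was the highest of the later cows and the lowest of the earlier ones, and only 3 of 4 arrays of days 20-25 were well above background. The difference of 4.65 (SE 0.95, 95% interval 2.62 to 6.69) did not pass (adjusted p = 0.149) and was 6.66 within slide 1 and 2.65 within slide 2.

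CCL8, a monocyte attractant, had levels of -4.14, -2.24, -2.99 and -3.94 on days 40-45, against -1.55, -1.75, -1.87 and -1.50 on days 20-25, without overlap (difference -1.66, adjusted p = 0.547). XCL1, a lymphocyte attractant, was -3.97, -4.25, -2.61 and -1.80 on days 40-45 and -2.27, -2.17, -3.69 and -3.12 on days 20-25: lower on the later stage within slide 1 and higher within slide 2. Of 6 tested chemokine receptors none was called by limma, and 1 was lower at an unadjusted p under 0.05 (16.7%, beside 7.75% of all genes tested). The median of the 6 was -0.44, or -0.29 without replicate 4 of days 20-25. CXCR4 had -0.62, and -0.19 without replicate 4 of days 20-25, where it was high at -1.99 beside -3.61 to -3.48 in the other 3 cows.

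**Figure D4:**
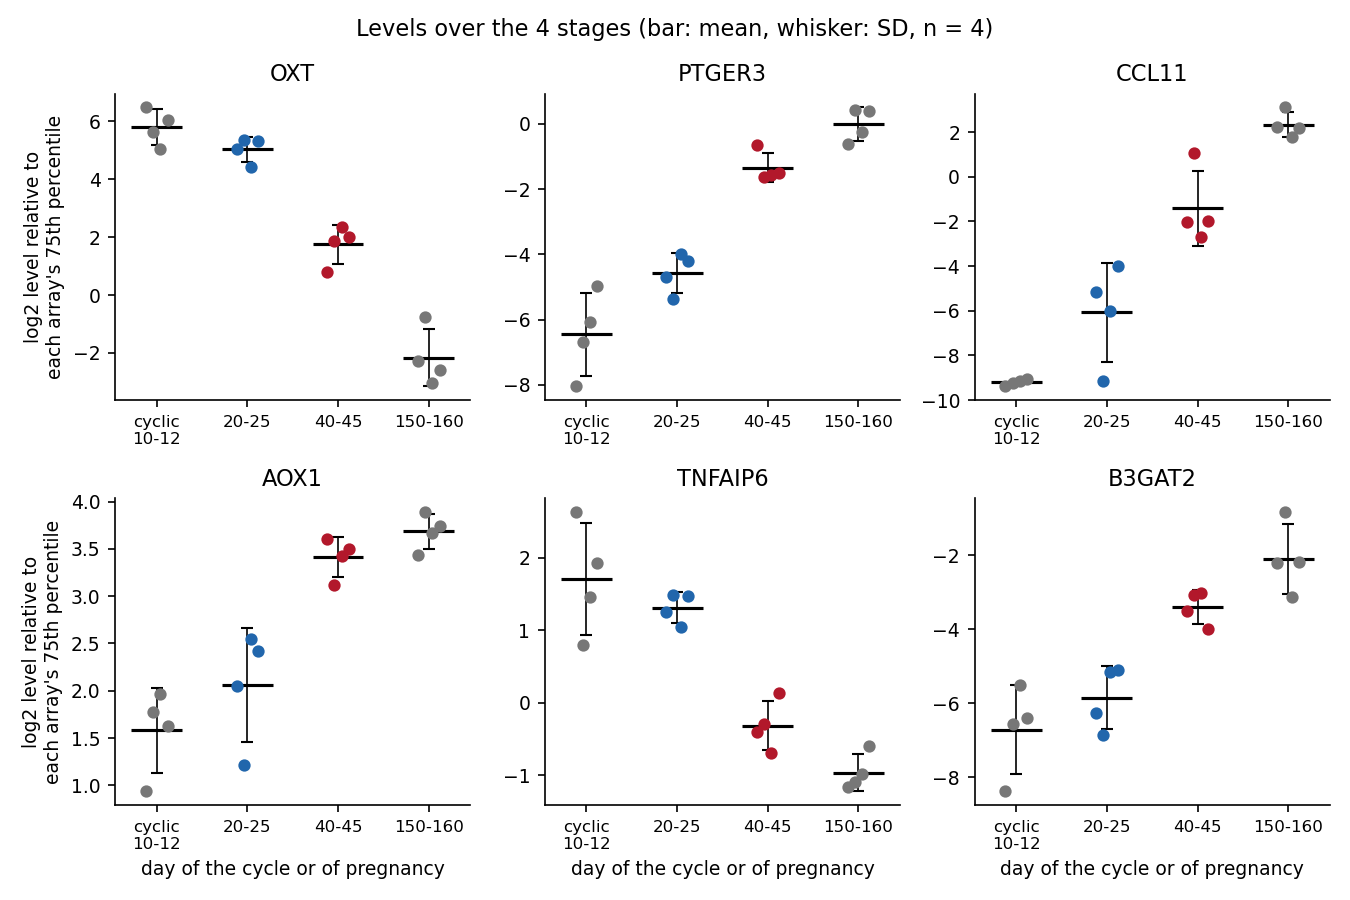
Levels of OXT, PTGER3, CCL11, AOX1, TNFAIP6 and B3GAT2 in all 16 cows by stage, from cyclic cows to days 150-160, on a log2 scale relative to each array's 75th percentile. Points are arrays, bars are means and whiskers are SDs of 4 cows. OXT and TNFAIP6 have a lower mean at each later stage and the other 4 a higher one; of the steps between days 20-25 and 40-45 those of OXT and PTGER3 passed the test.

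A few genes that did not pass the threshold had stages that did not overlap, and they are given as values, chosen after they were seen. AOX1, an aldehyde oxidase, had levels of 3.61, 3.12, 3.42 and 3.50 on days 40-45, against 2.05, 1.22, 2.55 and 2.42 on days 20-25 (difference 1.35, SE 0.24, adjusted p = 0.0974; 0.0548 with the oval missing). TNFAIP6, a hyaluronan-binding protein of the ovulating follicle and of inflamed tissue, had -0.41, -0.30, -0.69 and 0.13 on days 40-45, against 1.25, 1.49, 1.04 and 1.47 on days 20-25 (difference -1.63, adjusted p = 0.128). B3GAT2, a glucuronyltransferase, had -3.51, -3.07, -3.01 and -3.99 on days 40-45, against -6.27, -6.85, -5.15 and -5.11 on days 20-25 (difference 2.45, adjusted p = 0.206).

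DAPL1 and SERPINA1 were near background on days 20-25. DAPL1, a small protein of epithelia and the retina, lay between -6.31 and -4.80 on days 40-45 and between -8.39 and -6.97 on days 20-25, where 1 of 4 arrays was well above background (adjusted p = 0.19). SERPINA1, which encodes alpha-1 antitrypsin and restrains neutrophil elastase, lay between -6.49 and -5.10 on days 40-45, with all 4 arrays well above background, and between -8.17 and -6.80 on days 20-25, with none. It was at least 1.84-fold higher on days 40-45 (bright mean against the mean floor of the dim arrays; adjusted p = 0.19).

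The leukocyte lists were mostly negative. Macrophage genes had a median of -0.54 over 17 tested genes, 16 of them negative, with 0 called by limma, 6 lower at an unadjusted p under 0.05 (35.3%, beside 7.75% of all genes tested) and 7 that did not overlap, all lower (6.49% of all genes tested). VSIG4, a complement receptor of resident macrophages, stood at -2.14, -1.82, -1.66 and -2.09 on days 40-45 and at -1.54, -1.34, -1.28 and -0.70 on days 20-25 (difference -0.71, adjusted p = 0.281). CD86, a costimulatory ligand, had -0.85 and was well above background on 2 of 4 arrays of days 40-45 (adjusted p = 0.281). The summed signal of 18 macrophage genes on the array, led by C1QB, was 9.57 to 16.2 times the 75th percentile on days 40-45. On days 20-25 it was 9.98 times in replicate 4 and 16.7 to 17.8 times in the other cows. The sums thus overlapped through replicate 4 alone. Its low oval was kept in the sum, and 3 of the 17 tested macrophage genes lie there. C1QA was not above background on any of the 8 arrays. In whole tissue, fewer cells of a type and less RNA per cell cannot be told apart.

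T and NK cell genes had a median of -0.26 over 16 tested, with 2 lower at an unadjusted p under 0.05 (12.5%, beside 7.75% of all genes tested), and a median of -0.52 without replicate 4 of days 20-25. KLRK1, an activating NK receptor, had -1.06 (adjusted p = 0.446) and LCK, a T cell kinase, -0.47 (adjusted p = 0.517). The summed signal of 20 such genes was 1.28 to 1.74 times the 75th percentile on days 40-45 and 1.55 to 3.60 on days 20-25. Replicate 3 of days 20-25 stood at 3.60 and the other cows of that stage at 1.55 to 1.79. CD4 and CD28 were not above background on any of the 8 arrays. MHC class II genes had a median of -0.40 over 8 and B and plasma cell genes -0.39 over 5. BOLA-DRA had -0.62, BOLA-DYB -0.66, the B cell kinase BLK -0.89 and the immunoglobulin gene IGG1C -1.24, none past the test. The part of these cells in the interferon result was not tested.

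Granulocyte and antimicrobial peptide genes had a median of -0.18 over 15 tested, 14 negative. The sign was less uniform without replicate 4 of days 20-25, with 10 negative, and with quantile normalization, with 9 negative and a median of -0.07. LAP, a beta-defensin, stood at -7.22, -6.44, -8.34 and -8.04 on days 40-45, with 1 of 4 arrays well above background, and at -5.61, -5.51, -5.62 and -6.16 on days 20-25, with all 4 (difference -1.79, adjusted p = 0.19). With signals under background raised to the floor the difference was -0.98 (adjusted p = 0.264). Bovine beta-defensins are similar in sequence, and which member the probe reads was not tested. CATHL4, a cathelicidin of neutrophils, was not well above background on any of the 8 arrays, nor were CATHL1, CATHL3, DEFB4A and CXCR1.

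Matrix, vessel and cell cycle genes also had negative medians. Of 30 collagen and matrix genes 28 were negative, beside 3344 of all 5717 genes tested, and the median was -0.27. Limma called 0, and 7 were lower at an unadjusted p under 0.05 (23.3%, beside 7.75% of all genes tested). COL4A3, a basement membrane collagen chain, had levels of -4.36, -3.63, -3.72 and -4.04 on days 40-45, against -2.29, -2.22, -3.47 and -1.15 on days 20-25, without overlap (difference -1.65, adjusted p = 0.241). COL4A1, another such chain, had -0.69 (adjusted p = 0.281) and COL1A2, of fibrillar collagen, -1.18 (adjusted p = 0.398). Replicate 4 of days 20-25 was the highest of its stage for both basement membrane chains. Without it 22 of the 30 were negative and 8 positive, beside 3165 negative of all 5717 genes tested, and the median was -0.22. In that fit 4 of the 30 were lower at an unadjusted p under 0.05, beside 274 of all 5717 genes.

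Endothelial genes had a median of -0.23 over 24 tested, with 5 that did not overlap, all lower (6.49% of all genes tested were), and 2 lower at an unadjusted p under 0.05 (8.33%, beside 7.75% of all genes tested). ERG, a transcription factor of endothelium, stood at -3.89, -3.93, -4.06 and -4.04 on days 40-45 and at -3.45, -3.48, -3.53 and -3.47 on days 20-25, a small gap with very little spread in either stage (difference -0.50, SE 0.11, adjusted p = 0.19). ROBO4, an endothelial guidance receptor, had -0.56 (adjusted p = 0.456). The summed endothelial signal was 39.7 to 51.3 on days 40-45 and 45.7 to 58.6 on days 20-25. Proliferation genes had a median of -0.44 over 23, with 21 negative and 3 lower at an unadjusted p under 0.05 (13.0%, beside 7.75% of all genes tested). Without replicate 4 of days 20-25 their median was -0.26, and 1 was lower at that p, beside 274 of all 5717 genes tested. AURKB, a mitotic kinase, had -1.03 (adjusted p = 0.286) and BIRC5, its partner in the chromosomal passenger complex, -0.76 (adjusted p = 0.517).

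**Figure D5:**
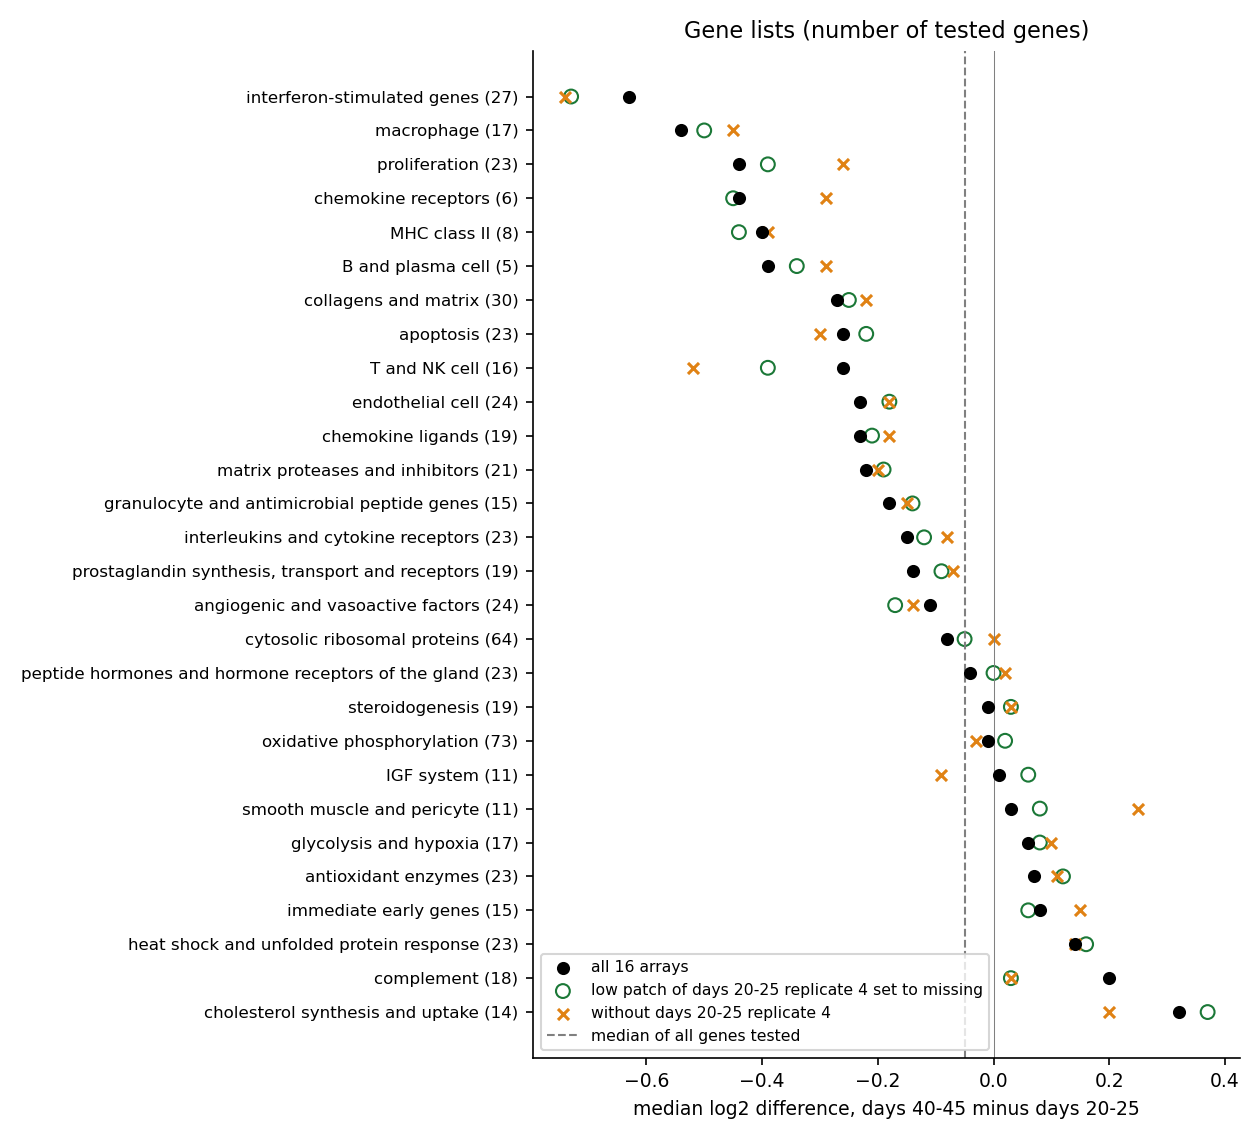
Median log2 difference of days 40-45 minus days 20-25 for the 28 gene lists, with the number of tested genes in brackets. Filled points use all 16 arrays, open circles leave out the low oval of replicate 4 of days 20-25, crosses leave out that array, and the dashed line is the median of all 5717 genes tested, -0.05. The interferon list is lowest at -0.63 and cholesterol synthesis highest at 0.32, and no list has a set test.

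The remaining lists lay within 0.26 of 0 in their medians. Of the lists of energy and protein supply, oxidative phosphorylation had -0.01 over 73 genes. Limma called 0, beside 4 of 5717 genes (0.07%) in all. At an unadjusted p under 0.05 it was 0 in either direction, beside 2.22% higher and 7.75% lower of all genes tested. Cytosolic ribosomal proteins had -0.08 over 64, with 1 higher at an unadjusted p under 0.05 (1.56%, beside 2.22% of all genes tested). NDUFA1, a subunit of complex I, had 0.26 with levels of 4.07, 3.91, 4.07 and 3.90 on days 40-45, against 3.74, 3.73, 3.90 and 3.53 on days 20-25, which do not quite meet. NDUFS7, another subunit, lies in the low oval and had 0.70 with all arrays and 0.09 without replicate 4. Of the ribosomal proteins RPL6 had 0.63 and RPS19 -0.52, or -0.34 without replicate 4. Glycolysis and hypoxia genes had 0.06 over 17: ALDOC, an aldolase, had 0.79 without overlap (adjusted p = 0.398), and EGLN3, an oxygen sensor, also 0.79 with overlap.

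The lists of stress and cell death had medians of either sign. Heat shock and unfolded protein genes had a median of 0.14 over 23. HSPA1A, an inducible chaperone, stood at 3.06, 3.05, 2.38 and 2.95 on days 40-45, against 2.07, 2.04, 2.25 and 2.31 on days 20-25, without overlap (difference 0.69, adjusted p = 0.346). HSP90B1, the chaperone of the endoplasmic reticulum, had 0.40 and also did not overlap. Antioxidant enzymes had 0.07 over 23, with GPX4, which reduces lipid peroxides, at 0.31 and GSTA2, a glutathione transferase in the low oval, at 1.22, or 0.57 without replicate 4 of days 20-25. Immediate early genes had 0.08 over 15, with CCN1, a matricellular protein in the low oval, at 1.43, or 1.06 without that array, and GADD45B at 0.58. Apoptosis genes had a median of -0.26 over 23, with 19 negative, 6 lower at an unadjusted p under 0.05 (26.1%, beside 7.75% of all genes tested) and 0 higher. Without replicate 4 of days 20-25, 2 were lower at that p, beside 274 of all 5717 genes tested. CASP6, an executioner caspase, was at -0.37 and BCL2, a survival factor, at -0.54. None of these passed the test.

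Among tissue factors, matrix proteases and inhibitors had a median of -0.22 over 21, with PLAU, urokinase, at -0.78, and MMP9, a gelatinase, at -0.96 (-0.58 without replicate 4 of days 20-25). At an unadjusted p under 0.05, 3 were higher and 3 lower (14.3% each, beside 2.22% and 7.75% of all genes tested). SERPINA1, described above, was among those higher. Smooth muscle and pericyte genes had 0.03 over 11, or 0.25 without replicate 4, with KCNJ8, a potassium channel of pericytes, at -0.58. CALD1 lies in the oval and had 0.50, or 0.18 without replicate 4. Angiogenic and vasoactive factors had -0.11 over 24, with EDN1, the vasoconstrictor endothelin 1, at -1.32 (-0.95 without replicate 4), GUCY1B1, of the nitric oxide receptor, at -0.57, and FGF1 at 0.17. The IGF list had 0.01 over 11, with IGF2 at -0.69, PAPPA, which cleaves IGF-binding proteins, at -0.42 and IGFBP6 at 0.31 (0.19 without replicate 4). Complement genes had 0.20 over 18, or 0.03 with the oval missing, with CD59, which protects cells from lysis, at 0.55 and C2 at -0.73. Interleukins and their receptors had -0.15 over 23, with the lymphocyte attractant IL16 at -0.66 and IL15, which sustains NK cells, at -0.59, or -0.36 with signals under background raised to the floor. No member of these lists passed the test.

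Markers of other tissues were checked as well. Of 6 red blood cell genes on the array, 3 were above background on some array of days 40-45 and 4 on some array of days 20-25. ALAS2 was the brightest, and HBB and SLC4A1 were above background on none of the 8 arrays. The summed red blood cell signal overlapped between stages, at 0.354 to 0.535 on days 40-45 and 0.365 to 0.538 on days 20-25. The summed follicular signal was 43.9 to 71.7 on days 40-45 and 38.8 to 97.6 on days 20-25. Markers of epithelium or mesothelium summed to 31.5 to 36.9 on days 40-45 and to 25.3 to 35.2 on days 20-25. Those of neurons and neuroendocrine cells, led by S100B, did not overlap, at 13.9 to 16.3 on days 40-45 and 17.4 to 19.2 on days 20-25, and 6 of the 19 on the array, CHGA and STMN2 among them, were above background on none of the 8. Their part in the results was not tested.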

How the data were processed

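Per the labels, RNA of 16 corpora lutea (4 cows at each of 4 stages) was hybridised to 1-colour arrays, which the submitters' processing notes say were read with Agilent Feature Extraction 9.5. Per the file headers the deposited intensity is a processed signal with background and spatial trend subtracted. The series' deposited value table is on a log2 scale and departs by at most 0.0046 from log2 of that signal minus a constant, so it served as an alternative.

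After leaving out 536 control spots, 15208 probes remained, with outlier spots set to missing. Levels are log2 signals minus the array's 75th percentile. The 11943 probes well above background on at least 3 of 4 arrays of any group were fitted with limma 3.58.1 in R 4.3.3 on all 16 arrays, with group and slide as terms, 11 residual degrees of freedom and Benjamini-Hochberg adjustment, two-sided, called under 0.05. On simulated data of this comparison (11918 probes, 200 of them changed) 60% of 2-fold and 93% of 4-fold changes were recovered, with 5 false calls. There the deviations from the fit were shuffled over the 16 arrays within each probe. The simulation thus holds no low oval and no outlying array, and many more changed probes than the 7 called. Its shares are not the sensitivity of the real comparison. RefSeq genes of ARS-UCD2.0 gave names for 7092 probes. A gene in a list is its probe with the highest mean. The low oval holds spots whose 25 nearest bright neighbours had a median deviation under -0.5, and was found after seeing the data.

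Named genes were the 12 largest rises and falls called without overlap, up to 4 called members of each list with at least 5 tested genes, or else the 2 with the smallest adjusted p, 16 genes fixed by name, and 10 probes on each side in replicate 4 of days 20-25. Members, lists and genes were chosen with earlier results of these data known. Exact permutation tests used scipy 1.17.1. The separate cows of a group are its replicates. Genome positions were not used here. Some named genes are not reported here, though the counts and medians of lists include them.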

Additional observations from a re-analysis of the deposited data

Results flagged for a closer look

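In groups of 4 the farthest cow was checked by its gap to the nearest other cow over the range of the group, against Dixon's 95% critical value, which chance passes in about 1 group of 20. Of the 158 levels of genes that were not chosen for replicate 4 of days 20-25, 11 passed. On days 40-45 these were PTGER3 (0.858, replicate 1 high), IFITM3 (0.905, replicate 2 high), HSPA1A (0.848, replicate 3 low) and GSTA2 (0.964, replicate 3 high). On days 20-25 they were CXCR4 (0.923, replicate 4 high), EDN1 (0.869, replicate 4 high), LAP (0.832, replicate 4 low), CALD1, a smooth muscle regulator in the low oval (0.919, replicate 4 low), IGF2 (0.889, replicate 3 low), CATHL4 under background (0.894, replicate 1 low) and DAPL1 (0.834, replicate 2 low). Replicate 4 is thus the far cow in 4 of the 7 on days 20-25.

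The genes chosen because replicate 4 of days 20-25 was far from its group pass by their choice. The ratios were 0.921 for HEXIM2, 0.974 for SFT2D2, 0.945 for RAB10, 0.922 for NDUFAB1, 0.996 for STT3A, 0.984 for HNRNPH2 and IDH3A, 0.989 for GTF3C2 and 0.956 for TMBIM4, all low in the oval. They were 0.863 for HSD17B1, 0.834 for FABP7, 0.864 for LTBP2 and 0.839 for F3, all high. The share of probes well above background also passed on days 40-45 (0.892), where replicate 3 had 71.9% and the other 3 cows 77.7% to 78.4%. The cause of these values was not tested.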

How the results depend on the processing

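The number of called probes, 7, was 4 without slide as a term, with normexp or with the percentile over probes detected on all arrays; it was 3 with quantile normalization, 2 with signals under background raised, 2 with a robust and trended variance, 1 of 10308 when only probes above background on all arrays were kept and 12 of 15208 with no filter. It was 0 within slide 1, within slide 2, with the 8 arrays and slide alone (smallest adjusted p 0.0805), and without replicate 4 of days 20-25 together with no slide term; these had 540, 772, 1751 and 706 probes at an unadjusted p under 0.05. Leaving out 1 array gave 0 to 9. Array weights, which gave replicate 4 of days 20-25 a weight of 0.229, called 514 probes, 135 higher and 379 lower, and 380 with the low oval missing; the oval missing and no slide term gave 3. The deposited table called the same 7, and the 8 arrays without slide also called 7, of which 3 were shared (1 higher and 6 lower; ESR2 adjusted p = 0.0983). The replicate number as a replicate block in place of slide gave 0 (OXT limma adjusted p = 0.0712, with 1136 probes at an unadjusted p under 0.05). The deviations of same-numbered cows had correlations of 0.231, 0.087, 0.055 and 0.091, and those of differently numbered cows -0.233 to 0.272. Same-numbered cows also share a slide, so these values cannot decide whether the numbers pair the animals. All 7 called probes kept their direction wherever they were tested. Among genes named by the rule and not chosen for replicate 4 of days 20-25, signs turned for STAR (0.16 in slide 1, 0.05 with weights, 0.09 without replicate 4 and slide, 0.03 with the oval missing in either fit, 0.05 with weights as well, and -0.08 to 0.07 over the fits that left out 1 array), LHCGR (-0.24 in slide 1), XCL1 (1.20 in slide 2, and -0.88 to 0.09 over the fits that left out 1 array) and FGF1 (-0.01 in slide 2). Other genes are not listed here, and PTGER2, for example, turned without replicate 4 of days 20-25. Of 980 medians of lists under other settings 24 moved by more than the spread between cows. With 4 cows a stage the number of arrays limits the precision, and the cause of the changes was not tested.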
